A study of Mus musculus with 8 samples.

Results

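The 8 genes described here are 6 keratins, Krt7, Krt8, Krt18, Krt19, Krt20 and Krt80, and 2 small proline-rich protein genes, Sprr1a and Sprr2f. They were taken by symbol from the 34450 genes of the deposited table, all 8 were found there, and all 8 passed the filter on low values (a mean of at least 0.5 FPKM over the libraries, met by 14444 genes). FPKM is the number of fragments of a gene scaled to its transcript length and to the mapped fragments of the library. Poly(A) RNA came from kidneys of 8-week-old C57BL/6J mice, taken on day 3 of recovery from ischaemia-reperfusion injury (IRI), in which the blood supply is cut off and then restored. In the hypoxia group (libraries 1 to 4) the mice had been exposed to hypoxia before the injury, and in the normoxia group (libraries 5 to 8) to normoxia. Both groups carried the injury, so no level below is that of an uninjured kidney. The labels used here state neither the oxygen level and length of the exposure nor whether each library is a separate mouse. For that reason a p-value covers only library-to-library spread, part of which may be technical.

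Keratins are intermediate filament proteins of epithelial cells, and each filament is built from a type I and a type II chain. Krt8 (type II) with Krt18 (type I) is the basic pair of simple, single-layered epithelia, Krt7 (type II) and Krt19 (type I) are added in ducts, and Krt20 (type I) is best known from intestinal epithelium and the surface cells of the urothelium, the lining of the renal pelvis and bladder. In the kidney, Krt8, Krt18 and Krt19 belong mainly to the collecting duct and other distal segments, and keratins are known to appear in injured proximal tubules. Krt80 is a type II keratin associated with the cell edge in differentiated epithelia. Sprr proteins are cross-linked into the cornified envelope of stratified epithelia and are also known as stress-induced genes in other tissues.

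The genes lie in 3 clusters (GRCm38, GENCODE M21). The type II genes and Krt18 are on chromosome 15: Krt80 (ENSMUSG00000037185) from 101347444 to 101370162, Krt7 (ENSMUSG00000023039) from 101411043 to 101430313, Krt8 (ENSMUSG00000049382) from 101996698 to 102004482 and Krt18 (ENSMUSG00000023043) from 102028180 to 102032027. Krt8 and Krt18 are 23697 bases apart and point away from each other. On chromosome 11 are Krt20 (ENSMUSG00000035775), from 99428403 to 99438150, and Krt19 (ENSMUSG00000020911), from 100140810 to 100148665. On chromosome 3 are Sprr2f (ENSMUSG00000050635), from 92365187 to 92366442, and Sprr1a (ENSMUSG00000050359), from 92483952 to 92485895. Of the stretches of 50 bases in the annotated transcripts of Krt8, 29.7% also occurred in another gene, chiefly the processed pseudogene Krt8-ps, so that reads of Krt8 may be divided with it. Krt8-ps was listed at 0.13 to 3.4 FPKM. The shared part was 0 to 2.74% for the other 7 genes, with 0.714% for Sprr2f, shared with its paralogue Sprr2e.

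The promoters of the Sprr genes and of Krt20 are shown because Sprr2f and Krt20 were the members that passed the test below and Sprr1a had the highest level of the Sprr family. Each is the RefSeq window from 250 bases before to 50 bases after the annotated start on GRCm38.p6, read 5′ to 3′ on the strand of the gene. It is chr3:92364937-92365236 on the plus strand for Sprr2f, chr3:92485832-92486131 on the minus strand for Sprr1a and chr11:99438104-99438403 on the minus strand for Krt20. Capitals mark TGANTCA, the core bound by AP-1 (dimers of Fos and Jun proteins), and TATAAA, the TATA box.
Sprr2f: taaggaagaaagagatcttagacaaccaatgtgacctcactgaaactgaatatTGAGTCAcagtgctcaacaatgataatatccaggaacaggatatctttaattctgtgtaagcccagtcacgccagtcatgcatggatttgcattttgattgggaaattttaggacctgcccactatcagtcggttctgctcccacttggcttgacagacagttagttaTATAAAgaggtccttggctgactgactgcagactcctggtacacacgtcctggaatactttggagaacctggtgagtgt
Sprr1a: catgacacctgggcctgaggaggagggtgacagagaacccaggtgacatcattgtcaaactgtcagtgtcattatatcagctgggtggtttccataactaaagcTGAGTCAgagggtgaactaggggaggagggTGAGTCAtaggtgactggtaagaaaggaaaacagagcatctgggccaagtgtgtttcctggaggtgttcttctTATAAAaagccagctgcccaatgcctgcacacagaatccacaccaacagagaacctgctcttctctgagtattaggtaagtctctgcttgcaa
Krt20: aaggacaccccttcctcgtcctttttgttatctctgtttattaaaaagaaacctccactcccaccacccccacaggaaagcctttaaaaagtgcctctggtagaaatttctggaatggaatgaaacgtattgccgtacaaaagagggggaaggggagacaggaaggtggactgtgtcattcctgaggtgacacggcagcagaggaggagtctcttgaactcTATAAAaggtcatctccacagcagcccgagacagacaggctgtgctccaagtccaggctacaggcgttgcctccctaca
Sprr1a held 2 matches of TGANTCA, 146 and 116 bases before the start, and Sprr2f held 1 match, 197 bases before it. RefSeq windows were found for 6 of the 8 members, and in the windows of Krt7, Krt8, Krt18 and Krt20 no TGANTCA was found. On both strands, 7.81% of 32851 windows of 300 bases held the motif at least once and 0.46% at least 2 times. TATAAA stood 29 bases before the start in Sprr2f and in Krt20 and 43 bases before it in Sprr1a, and occurred in 13.6% of all windows. It also stood next to the annotated start of Krt8. The GC box GGGCGG was found 4 times in Krt7 and in none of the other windows (35.7% of all windows). CACCC, a core recognised by Klf factors, was found in Krt7, Krt8, Krt18, Krt20 and Sprr1a (57.5% of all windows), and 1 match in Sprr1a overlaps the TGANTCA nearer to the start. TTCNNNGAA, a STAT core, was in none of the 6 (8.3% of all windows). These matches are letters in a window and were not measured as bound sites.

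The libraries differed in ways that touch every level below. Ribosomal transcripts took an estimated 13.6% to 72.5% of the fragments, which lowers the FPKM of all other genes in a library. The share was 41.0%, 21.6%, 66.3% and 67.4% in hypoxia libraries 1 to 4. In normoxia libraries 5 to 8 it was 13.6%, 62.95%, 28% and 72.5%. Values after TMM scaling, which brings the bulk of the genes to a common level, are therefore given beside the deposited values. Normoxia library 5 stood apart, with short genes high in it. Relative to the mean of normoxia libraries 6 to 8 after TMM scaling, the median gene with less than 2496 bases of exon was higher there by 0.62 on the log2 scale and the median gene with over 5116 bases lower (-0.61). Without read counts, depth was approximated from the steps between the lowest values, at 8610000 to 15000000 fragments per library. In bulk tissue, fewer cells of a type and less RNA per cell cannot be told apart.

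Sprr2f and Krt20 were the 2 of the 8 genes that fell after hypoxic preconditioning, by the moderated test of limma on log2(FPKM + 0.5) with Benjamini-Hochberg adjustment over all 14444 tested genes. Over all tested genes 0.602% were lower by this rule and 0.305% higher. None of the 8 rose, and at an unadjusted limma p under 0.05 none was higher either (2.52% of all tested genes were). At that unadjusted threshold 6 of the 8 were lower, against 6.84% of all tested genes. The log2 change was below 0 for 7 of the 8 and for 61% of all tested genes. The median log2 change of the 8 genes was -2.05, against -0.14 for all tested genes, and with TMM scaling -1.85 against 0.02. The groups did not overlap for 3 of them, Krt18, Krt20 and Sprr2f, all lower after hypoxia, as for 3.06% of all tested genes.

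**Figure D1:**
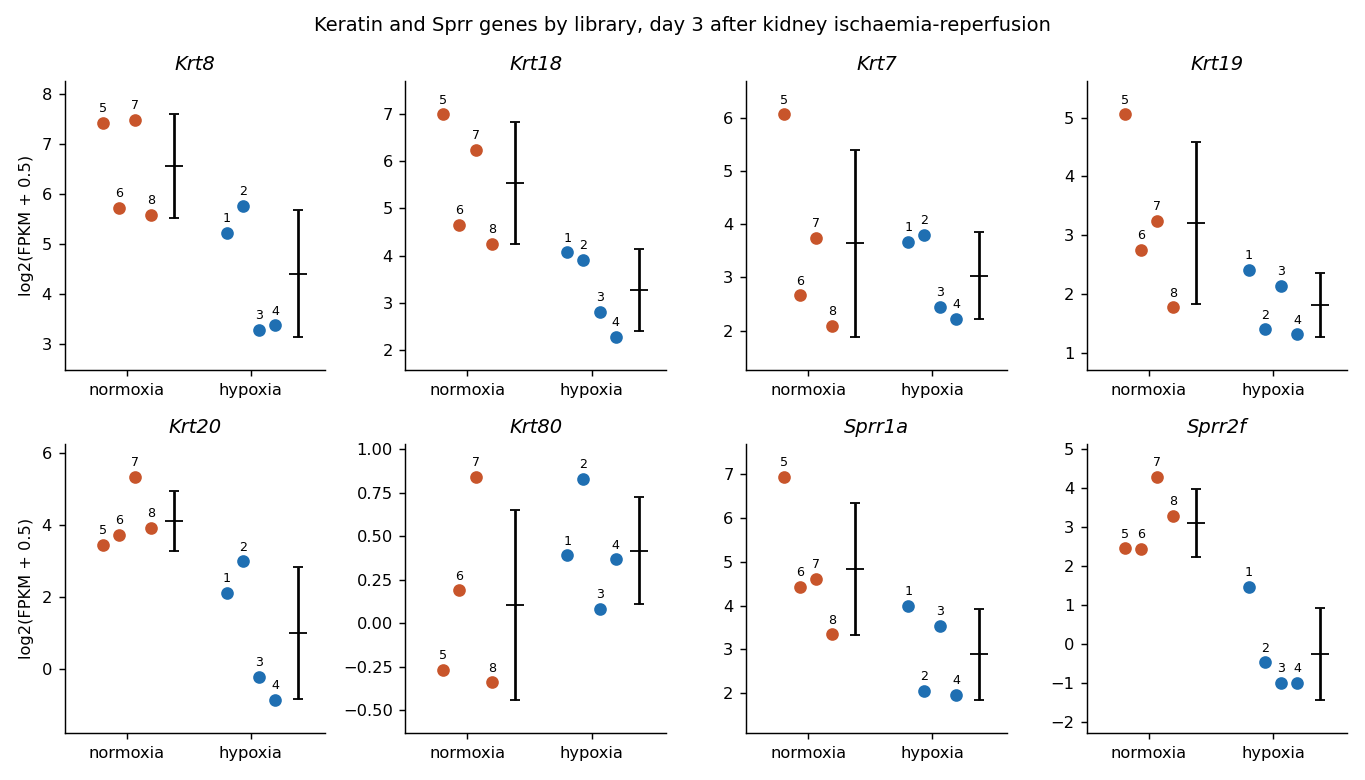
Level of each gene in each library as log2(FPKM + 0.5), 1 panel per gene with its own vertical axis. Points are libraries labelled with their number (normoxia 5 to 8, hypoxia 1 to 4), and the bars are the mean and SD of each group (n = 4). In Krt18, Krt20 and Sprr2f every normoxia library lies above every hypoxia library, while Krt7 and Krt80 overlap widely.

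Sprr2f was listed at 4.99, 4.9, 19.01 and 9.25 FPKM in normoxia libraries 5, 6, 7 and 8, and at 2.28, 0.22, 0 and 0 FPKM in hypoxia libraries 1, 2, 3 and 4. All normoxia libraries were above all hypoxia libraries, and hypoxia library 1 stood above the other hypoxia libraries. The mean was 9.54 ± 6.63 FPKM after normoxia and 0.625 ± 1.11 FPKM after hypoxia (SD, n = 4 each). Sprr2f fell with a log2 change of -3.37 ± 0.57 (SE, limma adjusted p = 0.0039). At the estimated depth the hypoxia values stand for about 16.9, 1.88, 0 and 0 fragments, so that the 0 values are not evidence of absence. The size of the change depended on the pseudocount, with -4.80 at a pseudocount of 0.1 and -2.71 at 1 (adjusted p = 0.00302 and 0.0112). With TMM scaling the change was -3.36 (adjusted p = 0.0206), and with TMM scaling without normoxia library 5 it was -3.52 (adjusted p = 0.0109). The call was lost without normoxia library 7, where Sprr2f was highest as deposited (log2 change -2.98, adjusted p = 0.063), and without the filter on low values (adjusted p = 0.294).

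Krt20 was listed at 10.44, 12.83, 40.02 and 14.82 FPKM in normoxia libraries 5 to 8, and at 3.87, 7.5, 0.36 and 0.06 FPKM in hypoxia libraries 1 to 4. The groups did not overlap, and within the hypoxia group libraries 3 and 4 were far below libraries 1 and 2. The mean was 19.5 ± 13.8 FPKM after normoxia and 2.95 ± 3.49 FPKM after hypoxia (SD, n = 4 each). Krt20 fell with a log2 change of -3.10 ± 0.73 (SE, limma adjusted p = 0.0385). After TMM scaling hypoxia libraries 3 and 4 were at 0.557 and 0.0905, still below the 3.11 and 5.29 of libraries 1 and 2. The estimated ribosomal share was 66.3% and 67.4% in hypoxia libraries 3 and 4 and 72.5% in normoxia library 8, and its part in the level of Krt20 was not tested. With TMM scaling the call held (log2 change -3.09, adjusted p = 0.0434), but not when the factors came from all genes of the table (adjusted p = 0.0603). It was also lost without hypoxia library 3 (adjusted p = 0.0814) or 4 (adjusted p = 0.105), without normoxia library 5 (adjusted p = 0.104) or 7 (adjusted p = 0.286), with a pseudocount of 1 (adjusted p = 0.0574), without the filter (adjusted p = 0.487) and when hypoxia libraries 1 and 2, and 3 and 4, were averaged (adjusted p = 0.207). The log2 change was between -3.79 and -2.48 in all alternatives run. The exact permutation test on Krt20 alone gave p = 0.0286, the smallest that 4 against 4 libraries allow. Groups without overlap always give that value, and it was the same for Krt18 and Sprr2f.

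Krt8 and Krt18, the chains of the simple epithelial filament, had the highest levels of the 8 genes after normoxia. Krt8 was listed at 172.2, 52.22, 178.1 and 47.71 FPKM in normoxia libraries 5 to 8 and at 36.92, 53.74, 9.28 and 9.86 FPKM in hypoxia libraries 1 to 4. Only hypoxia library 2 reached into the normoxia range. For Krt8 the log2 change was -2.14 ± 0.83 (SE, 95% confidence interval -3.86 to -0.43) and did not pass (limma adjusted p = 0.32). Krt18 was listed at 126.5, 24.56, 75.16 and 18.58 FPKM after normoxia and at 16.24, 14.56, 6.46 and 4.35 FPKM after hypoxia. Its groups did not overlap, although normoxia library 8 and hypoxia library 1 were close. For Krt18 the log2 change was -2.27 ± 0.77 (SE, 95% confidence interval -3.87 to -0.67) and did not pass either (limma adjusted p = 0.202).

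After TMM scaling the groups separated for Krt8 too, with 51.8 to 192.3 in the normoxia and 14.4 to 37.9 in the hypoxia libraries, so that 4 of the 8 genes did not overlap (6.25% of all tested genes were lower without overlap on this scale). Neither gene of the pair passed with TMM scaling (limma adjusted p = 0.0866 for Krt8 and 0.089 for Krt18; 2 of the 8 genes were lower, against 1.32% of tested genes). Both passed with TMM scaling without normoxia library 5, where the log2 changes were smaller (-1.56, adjusted p = 0.0307, and -1.50, adjusted p = 0.0132). In that setting 4 of the 8 genes were lower, against 5.32% of tested genes. Both also passed with quantile normalization (adjusted p = 0.0195 and 0.0114), where 4 of the 8 were again lower, against 2.42% of tested genes. With library weights 5 of the 8 were lower, Sprr1a among them (adjusted p = 0.0274), against 8.98% of tested genes.

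The rank of a gene within its library does not depend on how that library is scaled. Among the 14444 tested genes, Krt8 ranked 143rd to 271st in the normoxia libraries and 553rd to 1099th in the hypoxia libraries. Krt18 ranked 348th to 528th after normoxia and 1486th to 2628th after hypoxia. The ranges were 652 to 2547 and 3876 to 14005 for Krt20, and 1155 to 4141 and 7969 to 14108 for Sprr2f. The ranks of these 4 genes did not overlap between the groups, as for 7% of all tested genes, and all 4 ranked further down after hypoxia. Krt80 ranked 12228th to 13485th after normoxia and 10179th to 12222nd after hypoxia, which do not overlap in the other direction (7.55% of all tested genes). The ranks of Krt7, Krt19 and Sprr1a overlapped.

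**Figure D2:**
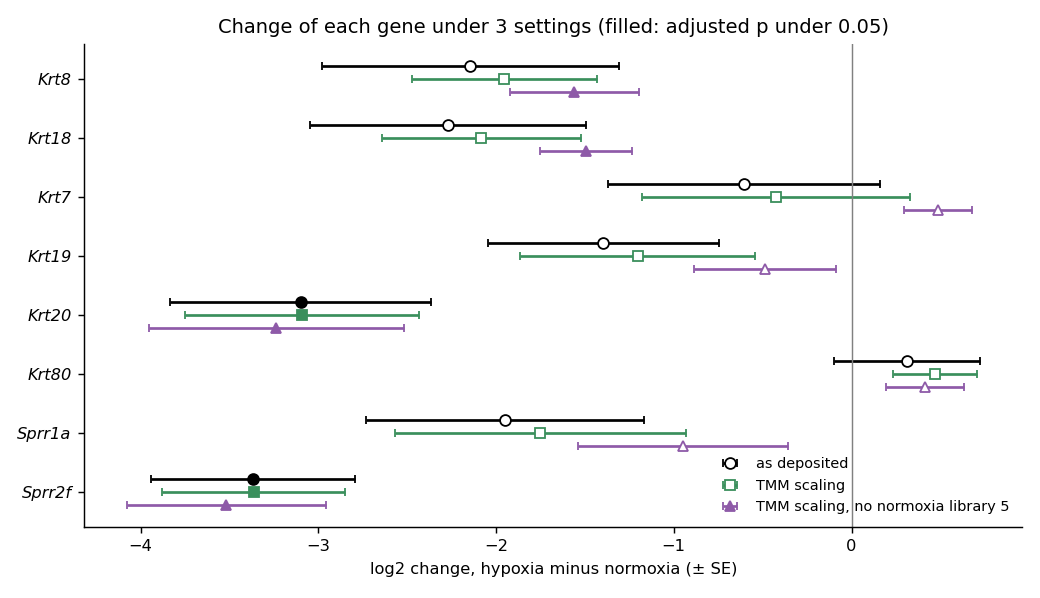
Log2 change of each gene, hypoxia minus normoxia, with its SE from limma, in the values as deposited, after TMM scaling, and after TMM scaling without normoxia library 5. Filled symbols have an adjusted p under 0.05. Krt20 and Sprr2f are filled in all 3 settings, Krt8 and Krt18 only in the last, and Krt7 lies on the other side of 0 there.

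The duct keratins differed from the pair above. Krt7 was listed at 66.46, 5.83, 12.84 and 3.76 FPKM in normoxia libraries 5 to 8 and at 12.24, 13.35, 4.93 and 4.18 FPKM in hypoxia libraries 1 to 4. Normoxia library 5 stood far above the other 7 libraries, and normoxia libraries 6 to 8 spanned about the same range as the hypoxia libraries. The log2 change of -0.61 ± 0.77 (SE, 95% confidence interval -2.18 to 0.97) did not pass (limma adjusted p = 0.974). Without normoxia library 5 it was 0.20, and with TMM scaling without that library 0.49 (adjusted p = 0.153), so the direction for Krt7 rested on 1 library. Krt7 was 3.58 above normoxia libraries 6 to 8 in library 5 on the log2 scale after TMM scaling. Its exon total is 7049 bases, in the class of long genes.

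Krt19 was listed at 32.77, 6.24, 9.01 and 2.91 FPKM after normoxia and at 4.8, 2.13, 3.89 and 1.98 FPKM after hypoxia. Only normoxia library 8 lay within the hypoxia range. The log2 change was -1.40 ± 0.65 (SE, 95% confidence interval -2.73 to -0.06, limma adjusted p = 0.492), and -0.49 with TMM scaling without normoxia library 5 (adjusted p = 0.518). Krt80 was near the filter throughout, at 0.33, 0.64, 1.29 and 0.29 FPKM after normoxia and 0.81, 1.28, 0.56 and 0.79 FPKM after hypoxia. Its groups overlapped and the log2 change of 0.31 ± 0.41 (SE, 95% confidence interval -0.53 to 1.16) did not pass (limma adjusted p = 0.978).

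Sprr1a was listed at 122.2, 21.06, 23.94 and 9.65 FPKM in normoxia libraries 5 to 8 and at 15.4, 3.65, 11.05 and 3.39 FPKM in hypoxia libraries 1 to 4. Hypoxia libraries 1 and 3 lay above normoxia library 8, and normoxia library 5 was more than all other libraries together. The log2 change was -1.95 ± 0.78 (SE, 95% confidence interval -3.56 to -0.34) and did not pass (limma adjusted p = 0.351). It was -1.25 without normoxia library 5 and -0.95 with TMM scaling without that library (adjusted p = 0.376).

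The order of levels was compared within each group as the difference in log2(FPKM + 0.5) between neighbouring genes in the same library. After normoxia the order was Krt8, Krt18, Sprr1a, Krt20, Krt7, Krt19, Sprr2f and Krt80. Krt8 exceeded Krt18 by 1.02 ± 0.40 and Sprr2f exceeded Krt80 by 3.01 ± 0.64 (SD, n = 4 libraries each), and the upper gene was higher in 4 of 4 libraries. The mean difference was smaller than its SD between the neighbours Krt18 and Sprr1a, Sprr1a and Krt20, Krt20 and Krt7, Krt7 and Krt19, and Krt19 and Sprr2f. After hypoxia the order was Krt8, Krt18, Krt7, Sprr1a, Krt19, Krt20, Krt80 and Sprr2f. There Krt8 exceeded Krt18 by 1.15 ± 0.56, Krt18 exceeded Krt7 by 0.23 ± 0.17 and Sprr1a exceeded Krt19 by 1.07 ± 0.49 in 4 of 4 libraries each, and the other neighbours differed by less than their SD. Sprr2f was thus last after hypoxia and above Krt80 in every normoxia library.

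Ratios to Krt8 within a library, which no scaling of that library can change apart from the pseudocount, were compared for the other 7 genes with a two-sided exact permutation test over 70 assignments (smallest possible p = 0.0286). Krt18 kept close to its partner, with a Krt8 to Krt18 ratio of 1.36 to 2.57 after normoxia and 1.44 to 3.69 after hypoxia. On the log2 scale, Krt18 over Krt8 differed by -0.13 between the groups (exact p = 0.83). Krt80 over Krt8 was higher after hypoxia in every library (difference 2.46, exact p = 0.0286, 0.20 adjusted over the 7 ratios). Krt80 itself was near the pseudocount of 0.5 FPKM in all libraries. Krt7 over Krt8 was higher after hypoxia by 1.54 (exact p = 0.0857, adjusted 0.30) with normoxia library 5 inside the hypoxia range. Krt20 and Sprr2f over Krt8 differed by -0.95 and -1.22 (exact p = 0.171 and 0.229), which were within the spread between libraries. Without normoxia library 5 the differences were -1.47 and -1.73 (exact permutation test, adjusted p = 0.1 for each). With all libraries, the size of both differences depended on the pseudocount, because both genes were near or at 0 FPKM in some hypoxia libraries. With a pseudocount of 0.1 the differences were -1.619 for Krt20 and -2.625 for Sprr2f, and with 1 they were -0.577 and -0.596. Whether these genes fell further than Krt8 is therefore not settled by the ratios. In normoxia libraries 6 to 8 the ratio of Krt20 to Krt8 was 0.225 to 0.311, against 0.0606 in normoxia library 5 and 0.00609 to 0.14 in the hypoxia libraries. Thus no ratio passed after adjustment over the 7. A single ratio at the smallest possible p is adjusted to 0.20, as for Krt80, so no ratio could pass alone. The lack of a call is therefore not evidence that the ratios were alike.

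**Figure D3:**
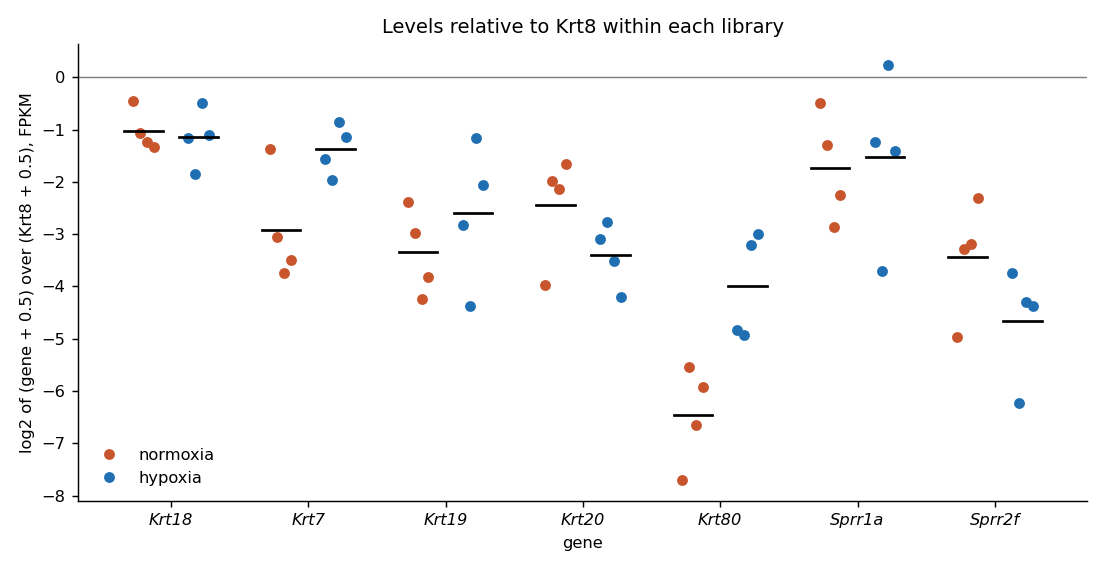
Log2 ratio of each of 7 genes to Krt8 in the same library, with 0.5 FPKM added to both. Points are libraries, black lines are group means (n = 4 each). Krt80 is the gene whose 4 hypoxia libraries all lie above the 4 normoxia libraries, and Krt18 shows the narrowest spread.

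The profiles over the 8 libraries were compared by the root mean square distance between log2(FPKM + 0.5) values centred on the mean of each gene. The shortest distances were 0.42 between Krt8 and Krt18 and 0.43 between Krt19 and Sprr1a. Krt7 was next to Krt19 (0.72). Krt20 was nearest to Krt8 (0.89) and Sprr2f to Krt20 (0.94), whereas Sprr2f and Sprr1a, of the same family, were 1.55 apart. Krt80 was at least 1.30 from every other member. As deposited, Krt20 and Sprr2f peaked in normoxia library 7, and Krt7, Krt18, Krt19 and Sprr1a in normoxia library 5. After TMM scaling Sprr2f peaked in normoxia library 8 instead (11.99, against 10.02 in library 7). Relative to normoxia libraries 6 to 8 after TMM scaling, library 5 was higher by 3.15 for Sprr1a, 2.80 for Krt19, 2.29 for Krt18 and 1.51 for Krt8, and lower for Krt20 (-0.55) and Sprr2f (-0.55), all in the short class of genes. As a description without a test, the 5 genes with the profile nearest to the mean of the 8 members were Mcub, a subunit of the mitochondrial calcium uniporter (distance 0.19), the tropomyosin gene Tpm3 (0.19), the carboxypeptidase inhibitor gene Lxn (0.21), the NF-kappaB subunit gene Nfkb2 (0.21) and Tmem173, which encodes STING (0.21). The members themselves lay farther from that mean, at 0.365 (Krt18) to 1.26 (Krt80). These 5 genes are thus near an average of unlike profiles, not near each member.

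**Figure D4:**
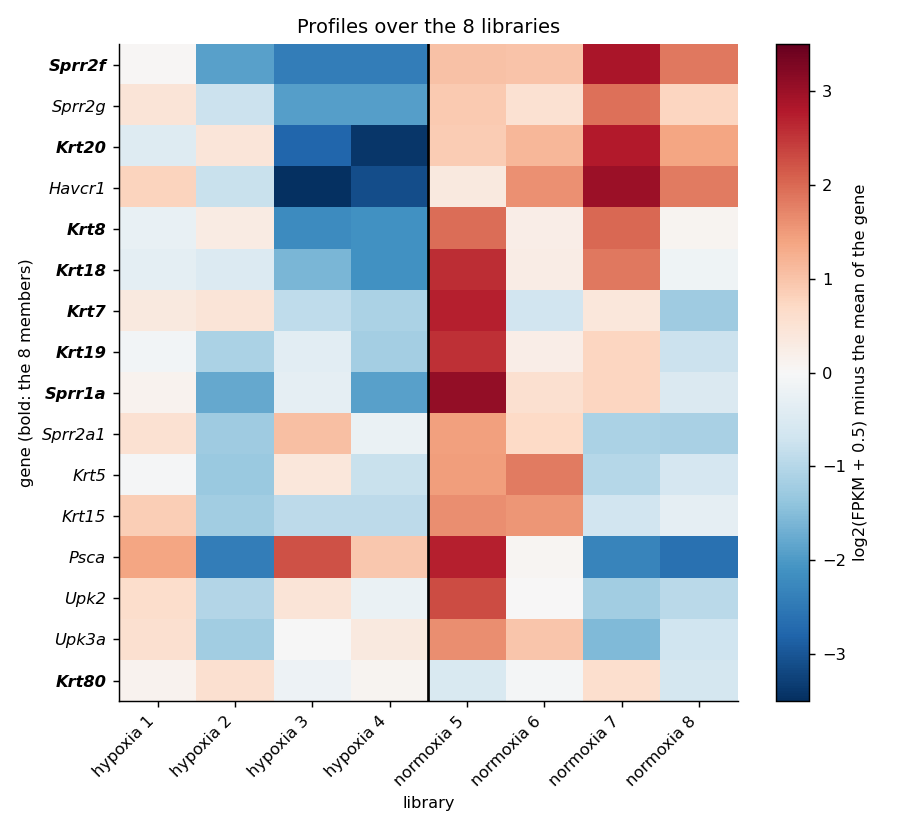
Profiles over the 8 libraries as log2(FPKM + 0.5) minus the mean of the gene (colour scale), for the 8 members in bold and for selected other genes: Sprr2g and Sprr2a1, the tubular injury gene Havcr1, and the urothelial or basal cell genes Krt5, Krt15, Psca, Upk2 and Upk3a. In these values as deposited, Krt20, Sprr2f and Havcr1 are highest in normoxia library 7, where Psca is at 0.57 FPKM. Sprr1a is highest in normoxia library 5, where Psca is at 34.55 FPKM.

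Markers of the urothelium, which itself expresses several of these keratins, varied widely between libraries of both groups. The 11 such genes in the table (of 12 listed) summed to 55.1 and 17.1 FPKM in normoxia libraries 5 and 6, 1.57 and 1.40 FPKM in normoxia libraries 7 and 8, and 21.8, 2.01, 35.2 and 14.5 FPKM in hypoxia libraries 1 to 4. The uroplakin gene Upk2 was listed at 5.12 and 0.67 FPKM in normoxia libraries 5 and 6, 0 and 0.1 FPKM in 7 and 8, and 1.28, 0.07, 1.08 and 0.49 FPKM in the hypoxia libraries. Of 7 tested urothelial genes none passed in either direction in limma, 0 did so at an unadjusted p under 0.05, and their median log2 change was 0.22. As deposited, Sprr1a was higher in hypoxia libraries 1 and 3 than in 2 and 4, and highest in normoxia library 5. The deposited urothelial sum was also highest in those libraries of each group. Most of the sum there was Psca, at 13.33 and 24.57 FPKM in hypoxia libraries 1 and 3 and 34.55 FPKM in normoxia library 5. As deposited, the sum was 17.1 and 1.57 FPKM in normoxia libraries 6 and 7, while Sprr1a was at 21.06 and 23.94 FPKM. After TMM scaling the sum was 17 and 0.828 in normoxia libraries 6 and 7, and Sprr1a was at 20.9 and 12.6. In hypoxia libraries 1 to 4 the scaled sum was 17.5, 1.42, 54.5 and 21.9, highest in libraries 3 and 4. Sprr1a was at 12.4, 2.57, 17.1 and 5.11 there on that scale. The part of urothelial cells in the level of Sprr1a, Krt7 and Krt19 was not tested. For Krt20 and Sprr2f the highest deposited levels, 40.02 and 19.01 FPKM, were in normoxia library 7. In that library the uroplakin genes Upk1b, Upk2 and Upk3a were listed at 0, Upk1a at 0.32 FPKM and Upk3b at 0.15 FPKM. After TMM scaling Sprr2f was highest in normoxia library 8 (11.99, against 10.02 in library 7). Krt20 was then at 21.1 in library 7 and 19.22 in library 8. Mesothelial markers were low (8 genes summing to 1.36 to 6.64 FPKM, none of 4 tested passing in limma and 1 lower at an unadjusted p under 0.05, with Bnc1 and Muc16 at 0 in all libraries), as were epidermal keratinocyte markers (8 genes summing to 1.03 to 11.3 FPKM, none of 3 tested passing at either threshold). Over all tested genes 6.84% were lower at the unadjusted threshold.

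Krt20 was listed among 17 markers of the injured proximal tubule, a list that shares it with the 8 genes and was chosen with results of these data known. In that list 5 fell, Krt20 itself among them, and none rose by limma over all genes, with a median log2 change of -2.46. With TMM scaling 6 fell, and 11 with TMM scaling without normoxia library 5, each time with Krt20 counted. Over all tested genes 0.602% fell as deposited, 1.32% with TMM scaling and 5.32% with TMM scaling without normoxia library 5. The named members were Ccl2 (log2 change -3.15 ± 0.64, SE), Sox9 (-2.14 ± 0.45), Timp1 (-4.03 ± 0.88) and Cd44 (-2.46 ± 0.57). The list summed to 1798 to 5269 FPKM after normoxia, and to 2585, 1762, 281.6 and 340.2 FPKM in hypoxia libraries 1 to 4. Hypoxia libraries 3 and 4 were thus low for this list as for Krt20. As deposited, the proximal tubule, macrophage and general epithelium lists were also lower in them than in hypoxia libraries 1 and 2. After TMM scaling the injury list summed to 2076, 1242, 435.5 and 513.1 in hypoxia libraries 1 to 4. The proximal tubule list then summed to 11425, 9969, 4637 and 4970 in these libraries. For the macrophage list the sums were 92.3, 79.7, 35.6 and 40.3, and for the general epithelium list 120.9, 116.9, 106.3 and 92.8. Of the 12 markers of epithelium in general, such as Epcam and Cdh1, none passed (0 at an unadjusted p under 0.05) and the median was -0.22. Of 11 tested principal cell markers of the collecting duct, the usual site of Krt8, Krt18 and Krt19 in the kidney, 1 rose and none fell, with a median of 0.50. It was the water channel gene Aqp4 (log2 change 2.05 ± 0.44, SE). Of 7 tested markers of the papilla and inner medulla none passed in limma (unadjusted p under 0.05 for 2 higher and 1 lower gene, median 0.38). Over all tested genes 2.52% were higher and 6.84% lower at that unadjusted threshold. Among 14 proximal tubule markers 1 rose, Slc7a13, with a list median of 1.07. None of the 14 rose with TMM scaling and 10 did with TMM scaling without normoxia library 5. For the principal cell markers these counts were 2 and 7, and 1 principal cell marker fell in the latter setting. Of the papilla and inner medulla markers 2 rose and 2 fell there. Over all tested genes 175 of 14444 rose with TMM scaling. With TMM scaling without normoxia library 5, 831 of 14414 did. The 12 macrophage markers (median -1.75) and 10 fibroblast and pericyte markers (median -1.34) had no call in limma. At an unadjusted p under 0.05, however, 10 and 6 were lower (6.84% of all tested genes were). With TMM scaling 3 macrophage and 4 fibroblast and pericyte markers were lower (1.32% of all tested genes were). With TMM scaling without normoxia library 5 the counts were 9 and 6 (5.32% of all tested genes). The 10 endothelial markers had none at either threshold (median 0.33).

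Outside the 8 members the table held 16 keratin and 6 Sprr genes, of which 4 and 3 reached the filter and none passed. The highest keratin among them was at 4.82 FPKM. That was Krt15, a basal cell keratin, listed at 4.82 and 4.51 FPKM in normoxia libraries 5 and 6 and at most 2.62 FPKM elsewhere. Krt5, a basal type II keratin, was listed at 3.15 and 4.11 FPKM in the same 2 libraries and at 0.03 to 1.23 FPKM elsewhere. The log2 changes were -1.10 ± 0.55 for Krt15 and -0.86 ± 0.55 for Krt5 (SE, limma adjusted p = 0.568 and 0.762). Sprr2g was listed at 3.05, 2.26, 6.75 and 2.67 FPKM after normoxia and at 2.1, 0.62, 0 and 0 FPKM after hypoxia, without overlap. As deposited, its profile had the same highest library and the same libraries at 0 as Sprr2f. The log2 change of Sprr2g was -2.07 ± 0.52 (SE, limma adjusted p = 0.0552), and with TMM scaling -2.10 (adjusted p = 0.0438). Sprr2a1, whose copies Sprr2a2 and Sprr2a3 are annotated beside it, was listed at 3.07, 1.64, 0.12 and 0.1 FPKM after normoxia and 1.43, 0.06, 2.25 and 0.63 FPKM after hypoxia (log2 change 0.06, adjusted p = 0.999). The Sprr2 genes thus did not share 1 profile, and how reads of near copies were divided by the authors is not given in the sources used here.

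Genes that work with keratins gave no call as deposited. Of 14 tested genes of desmosomes and of the linkers that tie keratin to them, none passed in limma (median log2 change -0.07). At an unadjusted p under 0.05, 1 was lower, against 6.84% of all tested genes. That gene was Plec, which encodes the linker plectin, listed at 7.88 to 16.66 FPKM after normoxia and 2.34 to 3.89 FPKM after hypoxia without overlap (log2 change -1.67 ± 0.56, SE, adjusted p = 0.193). Ppl, for periplakin, had a log2 change of -0.85 (adjusted p = 0.678). Of the 5 tested genes of the cornified envelope, to which Sprr proteins are linked, none passed (median -1.61). At an unadjusted p under 0.05, 1 was lower, against the same 6.84% of all tested genes. S100a11 was listed at 2967 FPKM in normoxia library 5, 200.4 to 852.1 FPKM in the other normoxia libraries and 61.7 to 315.9 FPKM after hypoxia (adjusted p = 0.485), and S100a10 had a log2 change of -1.72 (adjusted p = 0.544).

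The intermediate filament genes outside the keratins lay lower in the same direction as Krt8 and Krt18, without a call. None of 6 tested genes passed in limma, 5 were lower at an unadjusted p under 0.05, and the median log2 change was -1.78. With TMM scaling 2 were lower, and 4 with TMM scaling without normoxia library 5. Vim, the filament of mesenchymal cells and of dedifferentiated tubule cells, was listed at 11.5, 17, 100.5 and 34.72 FPKM after normoxia and 8.73, 6.84, 2.06 and 2.42 FPKM after hypoxia (log2 change -2.63 ± 0.74, SE, adjusted p = 0.0875). Nes, for nestin, was listed at 7.17 to 16.34 FPKM after normoxia and 1.89 to 2.89 FPKM after hypoxia (-1.96 ± 0.56, adjusted p = 0.0925). Both were without overlap. Among 20 tested regulators known from keratin and Sprr genes, AP-1 components included, none passed (median -0.71). At an unadjusted p under 0.05, 4 of them were lower (6.84% of all tested genes were). The smallest p was that of Klf5, a factor of proliferating epithelium, at 1.66 to 4.28 FPKM after normoxia and 0.56 to 1.25 FPKM after hypoxia (-1.14 ± 0.44, adjusted p = 0.319), followed by Atf3, a stress-induced partner of AP-1, with overlapping groups (-1.33 ± 0.53, adjusted p = 0.338). With TMM scaling without normoxia library 5, 4 of the regulators were lower and 1 higher. Over all 14414 genes tested in that setting, 767 were lower and 831 higher.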

How the data were processed

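The deposited table gave FPKM per gene and library, per the file headers, in 2 decimals. Per the submitters' processing notes the authors used HISAT2, StringTie and edgeR (versions and roles are not stated), and the build and annotation were not named there. All 34450 identifiers matched GENCODE M21 (GRCm38), which supplied symbols, positions and exon lengths. The file's columns after the FPKM values were empty.

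Unscaled log2(FPKM + 0.5) values of genes with a mean of at least 0.5 FPKM were fitted with limma 3.58.1 (R 4.3.3, eBayes with trend), two-sided, with Benjamini-Hochberg adjustment over 14444 genes and a threshold of 0.05. The pseudocount makes the change of a low gene appear smaller. Fits used the 2 groups as the only factor. The step was tested on simulated data. TMM factors (30% of ratios and 5% of levels trimmed at each end) were computed from the tested genes and used as a scaling only, with weights that were derived for counts.

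The 8 members, 17 lists of pathway and marker genes, tests and alternatives were chosen with earlier results of these data known. The genes named are the members, at most 4 passing genes per list (where none passed, the 2 of smallest p), not all of them printed, and the 5 nearest profiles. The other genes of the heat map, Krt8-ps and the urothelial genes named were chosen after their values were seen. Alternatives were other pseudocounts, filters, scalings and variance models, and leaving out each library. Lists are described by counts and medians without a test. Depth was estimated from the smallest values in single-exon genes of 600 to 3000 bases. Promoter sequences are from RefSeq (GRCm38.p6).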

Additional observations from a re-analysis of the deposited data

Results flagged for a closer look

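In 4 of the 16 sets of 4 libraries (8 genes in 2 groups), 1 library lay far from the other 3, with a gap above Dixon's 95% critical value (0.852 to 0.904 of the whole range). Chance alone flags about 1 in 20 sets if the sets are independent and the values normally distributed. Here the values were FPKM as deposited, not on the log2 scale, and the 16 sets share the same 8 libraries. The number of flags can therefore not be set against that rate. Krt7 was at 66.46 FPKM in normoxia library 5, against 3.76 to 12.84 FPKM in the other normoxia libraries. Sprr1a was at 122.2 FPKM in the same library, against 9.65 to 23.94 FPKM. Krt20 was at 40.02 FPKM in normoxia library 7, against 10.44 to 14.82 FPKM. After TMM scaling Krt20 was at 21.1 in that library and at 19.22 in normoxia library 8. Sprr2f was at 2.28 FPKM in hypoxia library 1, against 0 to 0.22 FPKM in the other hypoxia libraries.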

How the results depend on the processing

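The number of the 8 genes that were lower was 2 as deposited. It was 1 with a pseudocount of 1, 0 without the filter, 4 with quantile normalization, 5 with library weights (whose estimation stopped before convergence), 4 with TMM scaling without normoxia library 5, 1 with TMM factors from all genes of the table (chosen after seeing the data), 1 with the hypoxia libraries averaged, and 0 to 2 with 1 library left out. No member was higher in any of the 19 alternatives. Over all genes the counts were 44 higher and 87 lower. They were 0 and 0 without the filter, 175 and 191 with TMM scaling, 280 and 349 with quantile normalization, 360 and 1297 with library weights, 831 and 767 with TMM scaling without normoxia library 5, 23 and 4 with the hypoxia libraries averaged, and 11 to 67 and 4 to 237 with 1 library left out. The count of higher genes was 115 with TMM factors from all genes, and that of lower genes 47 with a pseudocount of 1. Krt7 changed direction with library weights (0.085), without normoxia library 5 (0.20) and with TMM scaling without that library (0.49), and ranged from -1.12 to 0.20 with 1 library left out. The small differences in ratio to Krt8 changed sign for Krt18 without hypoxia library 2 (0.11) or normoxia library 5 (0.068; range -0.35 to 0.11), and for Sprr1a without hypoxia library 3 (-0.39) or normoxia library 7 (-0.19; range -0.39 to 0.92). The causes of these changes were not tested. Krt80 could not be fitted at a mean of at least 2 FPKM. No paired analysis was possible because the groups share no replicate numbers. Depth limits Sprr2f, and Krt20 in hypoxia libraries 3 and 4, to few fragments.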
